A study of Mus musculus with 3 samples.

Results

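The genes described here are 41 transporters, enzymes and regulators of the renal tubule, read on arrays of sorted mouse spleen cells. They were taken from the array annotation by gene name, without a threshold, and 40 of the 41 were found, on 64 of the 44170 transcripts and among 24171 gene symbols in all. Cubn was not analysed here. The choice was made with earlier results of these arrays known, after tubule genes had been seen to be bright on 1 of the 3 arrays, so every value from that array against the others is a description, and no test is given. The spleens came from wild-type C57/BL6 mice of 8 weeks kept in SPF conditions, with no treatment named, and 3 populations were sorted: natural killer (NK) cells, B cells, and cells titled natural killer B (NKB) cells. With 1 array for each population there is no replicate spread to set a difference against, and this limits the precision throughout. How the cells were gated and how many animals were pooled is not stated in the labels, whose sorting step speaks of LT-HSCs (long-term hematopoietic stem cells) for each of the 3 samples.

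The proximal tubule reclaims glucose, phosphate, amino acids, organic acids and filtered protein from the urine, and sodium-coupled carriers in its brush border do most of this work. Its cells burn fatty acids, make glucose and arginine, and secrete organic anions through carriers of their blood-facing membrane. The loop of Henle, the distal tubule and the collecting duct follow, each with its own sodium chloride carrier or water channel. Liver and intestine share many of the metabolic genes, and macrophages or red cells share a few of the carriers.

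An intensity was taken as detected when it passed a level set for each array by 924 olfactory and vomeronasal receptor genes, of which 95% read lower. That level was 149 for B, 137 for NK and 135 for NKB. A gene was called higher or lower at a 2-fold difference, and a fold against an undetected value is a lower bound, written "at least". Where neither array passed its level no difference was taken. On the NKB array 28 of the 40 tubule genes were detected, against 5 on B and 6 on NK, while over all 24171 genes the shares detected were 25%, 23.4% and 25.1%. On the NKB array alone 22 of the 40 were detected, and 9 on none of the 3, where 6.37% of all genes were detected on NKB alone. For 34 of the 40 the NKB array was the brightest of the 3, as it was for 38.4% of all genes. This rank uses no level. Among the 34 are genes under the level on all 3 arrays, such as Cyp2e1, at 51.5 on NK and 53.0 on NKB. Because these arrays measure bulk RNA, more cells that carry a transcript and more transcript per cell cannot be told apart.

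On the NKB array 17 of the 40 were called higher than on B (4.56% of all genes), 18 were called higher than on NK (5.97%), and 17 were called higher than on both (3.83%). The members were chosen on this contrast, so nothing is read from these shares. Against B 1 member was called lower (4.75% of all genes), and against NK none was (5.1%). Between NK and B, a comparison that leaves out the NKB array, 2 of the 40 were called lower in NK (2.97% of all genes) and none higher (2.22%). The median log2 difference of the 40 members was 0.58 for NKB minus B and 0.78 for NKB minus NK. Both include bounds, and a 0 for each gene detected on neither array of the pair. Over all genes both medians were 0, and 15346 of the 24171 genes were detected on no array. The medians of the members move with the level: both were 0 with the level at the 99th percentile of the receptor genes, and 2.07 and 2.26 with no level.

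**Figure D1:**
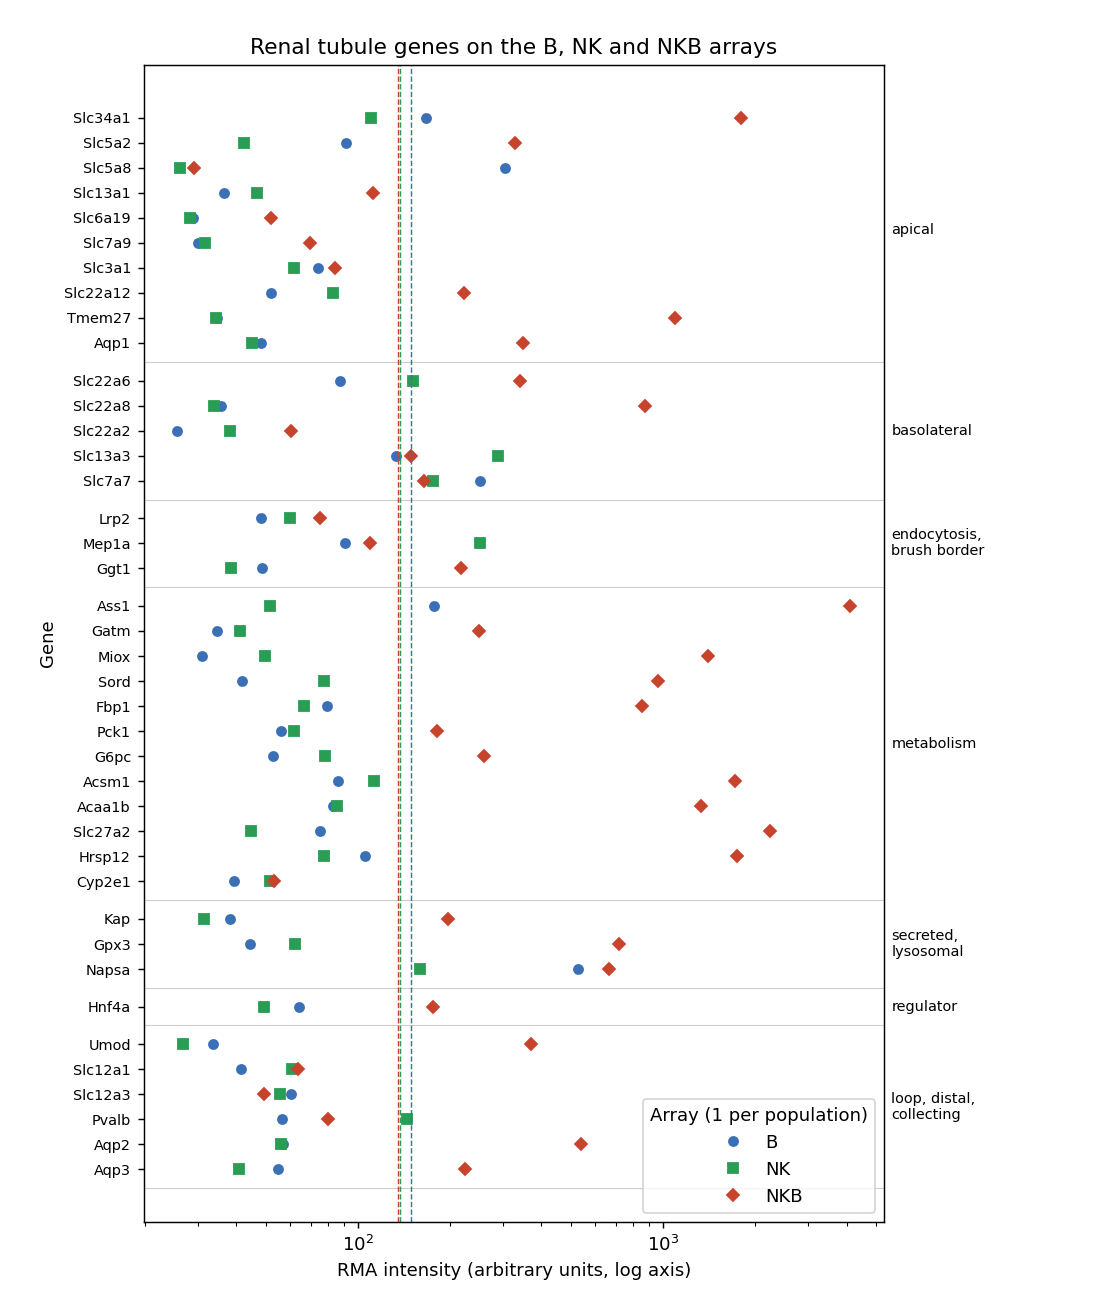
RMA intensity (log axis) of each of the 40 tubule genes on the B (circles), NK (squares) and NKB (diamonds) arrays, 1 array per population, grouped by function, with dashed lines at the detection level of each array (149, 137 and 135). The NKB diamond is the rightmost point for 34 genes, and the metabolic genes reach from 53.0 for Cyp2e1 to 4117 for Ass1.

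Of the carriers in the apical membrane of the proximal tubule, 4 of 10 were called higher on NKB than on both other arrays. Slc34a1, the sodium-phosphate cotransporter of the brush border, read 167 on B, 111 on NK and 1809 on NKB. The average is 10.8-fold higher than B and at least 13.2-fold higher than NK. One of its 2 probe sets was under the level on B at 70.7, and by probe set the excess over B is at least 5.43-fold and 10.3-fold. Tmem27, also called Cltrn or collectrin, which keeps amino acid carriers at the brush border, read 34.5, 34.4 and 1093, at least 7.34-fold and at least 7.97-fold higher. The sodium-glucose cotransporter gene Slc5a2 read 91.3 on B, 42.3 on NK and 326 on NKB, and Aqp1, the water channel of the proximal tubule and also of red cells, read 48.3, 44.9 and 348. Both were dim on B and NK, and both stood at least 2.19-fold above each.

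The other apical carriers were not called higher on NKB. Slc22a12, the urate exchanger, was detected on NKB alone at 223, against 52.1 on B and 82.6 on NK, and the bounds of 1.50-fold and 1.62-fold stay under the threshold. The sulphate carrier gene Slc13a1 averaged 112 on NKB, under the level, although 2 of its 3 probe sets read 169 and 179. Slc6a19, the main carrier of neutral amino acids, and Slc7a9 and Slc3a1, the paired chains of the cystine carrier, were detected on no array and read between 51.8 and 84.0 on NKB. Slc5a8, a sodium-coupled carrier of lactate, went the other way: it read 304 on B, 26.2 on NK and 28.9 on NKB, at least 2.25-fold lower in NKB than in B. It was the only member called lower on NKB than on B, and it rests on 1 probe set.

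The promoter of Tmem27 is shown because, among the genes called higher on both counts, it was the only one whose promoter held a searched motif. RefSeq promoter sequences (GRCm38.p6, 250 bases before to 50 after the start) were at hand for 36 of the 40 members, and Slc5a2, Hrsp12, Slc13a1 and Napsa had none. The motif of HNF1 factors, homeodomain regulators of tubule and liver genes, was searched on both strands as the letters that stand in capitals in the promoter printed here, with any base allowed at the seventh. It was found in 20 of 32851 promoters (0.0609%) and in 1 of the 36 members. The window printed here is chrX:164089937-164090236 on the plus strand of GRCm38.p6, with the match in capitals, which begins 54 bases before the annotated start:
Tmem27 (Cltrn): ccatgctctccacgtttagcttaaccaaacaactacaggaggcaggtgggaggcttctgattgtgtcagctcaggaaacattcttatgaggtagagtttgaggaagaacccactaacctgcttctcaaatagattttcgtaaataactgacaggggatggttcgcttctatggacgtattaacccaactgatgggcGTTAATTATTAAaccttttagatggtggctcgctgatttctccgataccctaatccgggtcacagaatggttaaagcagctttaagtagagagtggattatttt
The motif of HNF4, searched as CAAAGTCCA and its reverse complement TGGACTTTG, stood in 156 promoters (0.475%) and in 1 member, Slc3a1, which was not detected. A match of letters is a description of the window and shows no binding.

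On the blood-facing side, the organic anion transporter genes Slc22a8 and Slc22a6, which take up drugs and metabolites for secretion, were both called higher on NKB. They are neighbours on chromosome 19 with no protein-coding gene between them. Slc22a8 read 35.7 on B, 33.7 on NK and 877 on NKB, at least 5.89-fold and at least 6.39-fold higher. Slc22a6 read 87.2, 151 and 341, which is at least 2.29-fold higher than B and 2.26-fold higher than NK, so its excess is close to the threshold. The organic cation transporter gene Slc22a2 was detected on none of the arrays and read 60.4 on NKB.

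The 2 remaining carriers of this group depended on the probe set. Slc13a3, which carries dicarboxylates, averaged 133 on B, 289 on NK and 149.7 on NKB. One of its probe sets read 198, 619 and 669.8, and the other 89.3, 134.6 and 33.4. Slc7a7, a chain of a dibasic amino acid exchanger that macrophages also express, averaged 251, 177 and 165, with 288.9, 153 and 451 on 1 probe set and 218, 204 and 60.5 on the other. For both genes, NKB was the brightest array on 1 probe set and the dimmest on the other.

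The 3 members on the array for protein uptake and brush-border enzymes were not called higher on NKB. Lrp2, which encodes megalin, the receptor for filtered proteins, read 48.3 on B, 60.1 on NK and 75.1 on NKB, under the level on each array. Ggt1, which breaks down glutathione outside the cell, read 48.4, 38.4 and 218, a bound of 1.46-fold over B and 1.59-fold over NK. Mep1a, a subunit of the metalloprotease meprin, was brightest on NK, at 91.1 on B, 251 on NK and 109 on NKB.

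Metabolic enzymes held 8 of the 17 genes called higher on both counts, of 12 in the group. For each of the 12 the NKB array was the brightest, though Cyp2e1 was under the level on every array. Ass1, which joins citrulline and aspartate on the way to arginine, read 177 on B, 51.6 on NK and 4117 on NKB. On average it was 23.2-fold higher than B and at least 30.0-fold higher than NK, and its transcripts lie at chr2:31325789-31376190 and chr2:31330227-31376187 on the MM9 build of the array. Its probe sets read 245 and 128 on B, the second under the level, and 3803 and 4458 on NKB, which is 15.5-fold and at least 29.9-fold higher.

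Of the genes of fatty acid handling, Slc27a2, which imports and activates very long-chain fatty acids, read 75.2 on B, 44.7 on NK and 2239.7 on NKB, at least 15.0-fold and at least 16.3-fold higher. All 3 of its probe sets passed, at 1461, 1947 and 3950.5 on NKB. The medium-chain acyl-CoA synthetase gene Acsm1 read 86.0, 113 and 1728, at least 11.6-fold higher than B. Acaa1b, a thiolase of peroxisomal beta-oxidation, read 82.6, 85.7 and 1329.9, at least 8.93-fold higher than B. None of these 3 genes was detected on B or NK.

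Enzymes of sugar, inositol and amino acid breakdown were also called. Miox, which begins the breakdown of myo-inositol and is known chiefly from kidney, read 30.9 on B, 49.5 on NK and 1407 on NKB, at least 9.45-fold and at least 10.3-fold higher. Sord, which oxidises sorbitol to fructose, read 41.8, 77.3 and 966, and Fbp1, an enzyme of glucose synthesis, read 79.2, 66.5 and 853. Hrsp12, also called Rida, which clears reactive imines from amino acid breakdown, read 106, 77.2 and 1748, at least 11.7-fold higher than B. All 4 were under the level on B and NK.

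The other 4 metabolic genes were not called. G6pc, which releases free glucose, read 52.8 on B, 77.8 on NK and 260.03 on NKB, a bound of 1.75-fold over B. Gatm, the first enzyme of creatine synthesis, read 34.7, 40.9 and 249, a bound of 1.67-fold. Pck1, which commits carbon to glucose synthesis, averaged 55.9, 61.8 and 181.5, but its probe sets differed: 1 read 75.1, 91.0 and 2812, while the others read 49.8 and 42.7 on NKB. Cyp2e1, a cytochrome P450 that is abundant in liver, read 39.2, 51.5 and 53.0 and was detected on no array.

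Among secreted and lysosomal products, Gpx3, the plasma glutathione peroxidase that the proximal tubule supplies, read 44.4 on B, 62.3 on NK and 716 on NKB, at least 4.81-fold and at least 5.22-fold higher. Its probe sets read 1650 and 3399 on NKB for 2 transcripts and 65.4 for the third. Kap, the kidney androgen-regulated protein gene, was detected on NKB alone at 198, against 38.0 and 31.4, a bound of 1.33-fold over B. Napsa, an aspartic protease gene, averaged 527, 159 and 667, which is 4.19-fold higher in NKB than in NK and 1.27-fold higher than in B. Its 2 probe sets went opposite ways against B: 1 read 462, 92.8 and 1667, and the other 601, 274 and 267, which is 2.25-fold lower in NKB than in B and level with NK. Napsa was also 1 of the 2 members called lower in NK than in B, the other being Slc5a8. Hnf4a, a nuclear receptor that regulates proximal tubule and liver genes, averaged 64.2, 49.1 and 177 over 3 probe sets. Only 1 of them was called, at 69.8, 48.8 and 301. The others read 42.8, 35.6 and 171, a bound of 1.15-fold over B, and 88.5, 68.0 and 107, under the level on each array.

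Markers of the later segments were called higher on NKB for 2 of 6. Umod, which encodes uromodulin of the thick ascending limb, read 33.5 on B, 26.8 on NK and 369 on NKB, at least 2.48-fold and at least 2.69-fold higher, and both probe sets passed at 408 and 334. Aqp2, the vasopressin-regulated water channel of the collecting duct, read 56.6, 55.9 and 538, at least 3.61-fold and at least 3.92-fold higher. Aqp3, the water channel of the opposite membrane of the same cells, was detected on NKB alone at 224, a bound of 1.50-fold over B.

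The salt carriers of these segments were not detected. Slc12a1, the sodium-potassium-chloride cotransporter of the thick limb, read 41.4 on B, 60.7 on NK and 63.5 on NKB, and Slc12a3, the thiazide-sensitive carrier of the distal tubule, read 60.4, 55.6 and 49.2. Pvalb, a calcium-binding protein of the early distal tubule, averaged 56.6, 144 and 79.9 over 3 probe sets, above the level on NK alone. One of its probe sets read 32.5, 238 and 154 and so passed on NKB too, and the authors' deposited table lists it as 4.73-fold higher in NKB than in B. For Slc12a3 and Pvalb, NKB was not the brightest array.

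Probe sets of 1 gene can be set against each other as a check within these arrays, though not as replicates. Of the 40 members 24 had 1 probe set and 16 had several, and each set held 3 probes. In 5 of the 16 every probe set was called higher on both counts (Slc34a1, Ass1, Slc27a2, Hrsp12 and Umod), in 4 some were (Gpx3, Pck1, Napsa and Hnf4a), and in 7 none was. Of the 64 probe sets 27 were called higher on both counts and 48 were brightest on NKB. The matching shares of all transcripts were not computed, and the members were chosen on this contrast. Nothing is therefore read from the counts of 27 and 48. Of the 17 genes called, 11 rest on 1 probe set.

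**Figure D2:**
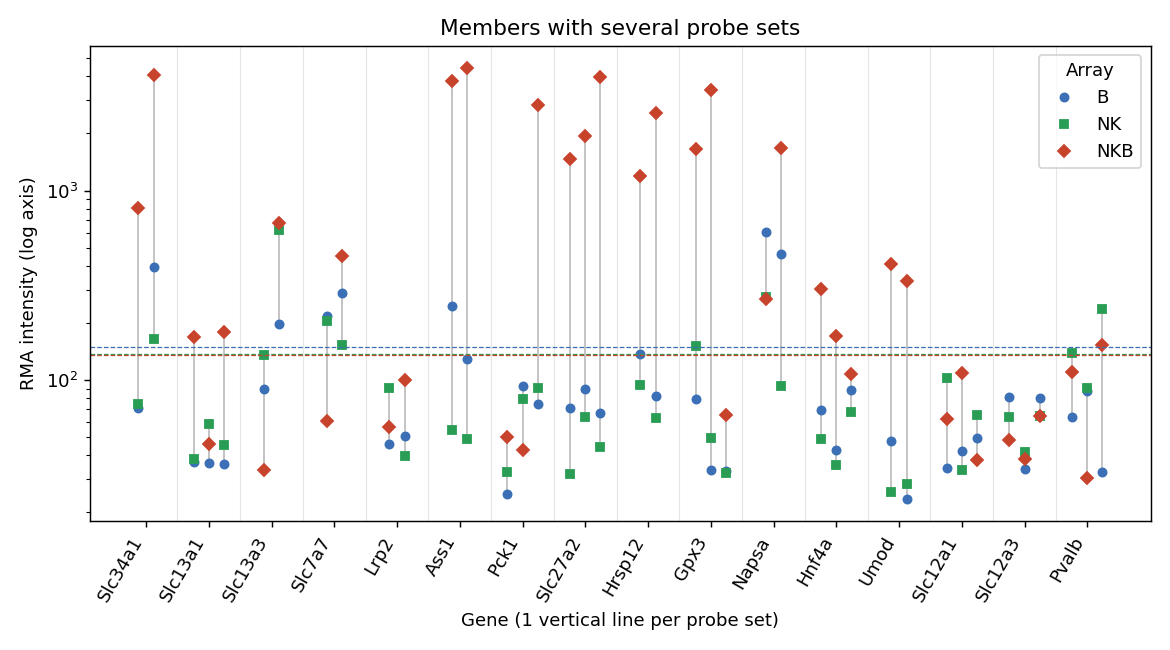
RMA intensity (log axis) of each probe set of the 16 members with several, 1 vertical line per probe set, on the B (circles), NK (squares) and NKB (diamonds) arrays, with dashed lines at the detection levels. Both or all 3 diamonds stand above the other symbols for Slc34a1, Ass1, Slc27a2, Hrsp12, Umod, Gpx3 and Hnf4a. For Gpx3 and Hnf4a not every probe set was called higher on both counts. For Pck1, 1 of the 3 diamonds reaches 2812 and the other 2 stay at 49.8 and 42.7.

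Other tubule genes, outside the members, were listed with the same knowledge of earlier results. Of 66 further proximal tubule genes on the array 13 were called higher on NKB than on both other arrays, beside 3.83% of all genes. Detected were 21 on NKB, 4 on B and 4 on NK, beside 25%, 23.4% and 25.1% of all genes. Among the 13 called, Hao2, a peroxisomal hydroxyacid oxidase gene, read 34.9 on B, 44.2 on NK and 654 on NKB. Of 30 further genes listed for the loop, distal tubule and collecting duct 3 were called: Cdh16, the kidney-specific cadherin, at 80.5, 131 and 705, the kallikrein gene Klk1 at 37.4, 32.3 and 565, and the sodium pump regulator gene Fxyd2 at 79.6, 61.2 and 492. Whether these 3 are confined to the later segments was not checked. The median log2 difference was 0 in both comparisons for either list, as over all genes, since 41 of the 66 and 23 of the 30 were detected on no array.

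Lists for organs that share tubule genes gave no calls. None of 20 liver genes was called higher on NKB than on both, beside 3.83% of all genes. Of the 20, 18 were detected on no array, as were 15346 of all 24171 genes. Their summed intensity was 1071 on B, 991 on NK and 1253 on NKB. Alb, the serum albumin gene, was detected on NKB at 177, against 48.2 on B and 39.5 on NK. None of 11 intestinal genes and none of 8 glomerular genes was called, with summed intensities of 563, 519 and 557 for intestine and 625, 750.4 and 462 for glomerulus. At a share of 3.83% over all genes, lists this short can hold no call, so nothing is read from its absence. Over the 40 members the summed intensity was 3424 on B, 3031 on NK and 24356 on NKB. The members were chosen on this contrast, so nothing is read from their sum. For the 66 further proximal genes the sum was 4238 on B, 3859 on NK and 11359 on NKB. For the 30 further genes of the later segments it was 1594, 1795 and 3866. Those further lists were also made with earlier results known.

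**Figure D3:**
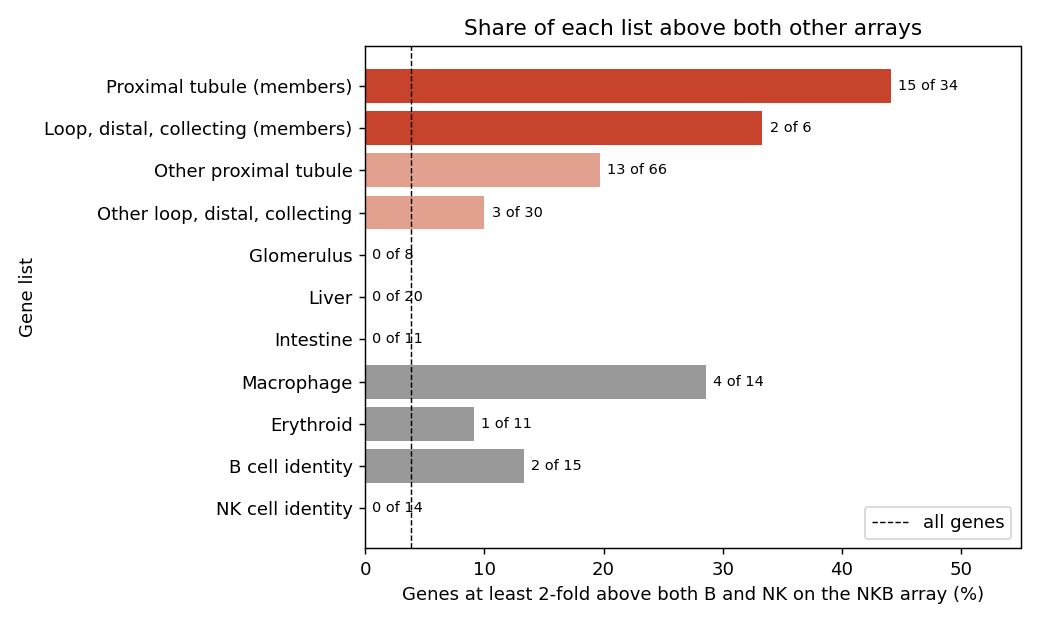
Share (%) of the genes of each list on the array that were at least 2-fold above both the B and the NK array on the NKB array, with the count beside each bar and a dashed line at the share of all genes (3.83%). The bars of the members stand at 15 of 34 and 2 of 6, of which the choice of members is a part, those of the further tubule genes at 13 of 66 and 3 of 30, and those for glomerulus, liver and intestine at 0.

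Markers of other cells were also read on the 3 arrays. The 15 B cell genes were detected on B for 15, on NKB for 14 and on NK for 3. Of these 15, 5 were called lower in NKB than in B (4.75% of all genes) and 2 higher (4.56%). The 14 NK cell genes were detected on NK for 14, on NKB for 11 and on B for 1. Of these 14, 12 were called lower in NKB than in NK (5.1% of all genes) and 0 higher (5.97%). Of 14 macrophage genes 4 were called higher on NKB than on both other arrays, beside 3.83% of all genes. Detected were 12 on NKB, 10 on NK and 1 on B, beside 25%, 25.1% and 23.4% of all genes. The summed intensity of the 14 was 1176 on B, 8644 on NK and 8861 on NKB. The macrophage genes Vcam1, Cd163 and Spic read 646, 396 and 375 on NKB, and at most 175 on NK and 101 on B. Another 2 of the 14, named after their values were seen, were called lower in NKB than in NK: Lyz2 at 671 on NKB and 2388 on NK, and Cd68 at 187 and 769.7. Of 11 erythroid genes 1 was called higher than on both, beside 3.83% of all genes, so nothing is read from that count. It was the globin gene Hbb-b1, at 252, 2083 and 5583. Of the 11, 6 were detected on no array, and the summed intensity was 1451 on B, 6710 on NK and 10081 on NKB. The part of macrophage and red cell RNA in the excess of tubule genes was not tested.

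The authors' deposited tables of transcripts at least 2-fold apart hold a part of these genes. Of the 41 member transcripts at least 2-fold higher on NKB than on B, without a detection level, the authors' deposited table lists 10, and of the 41 at least 2-fold higher than on NK it lists 9. Checked over all transcripts, the authors' deposited tables list those that were 2-fold apart and read 100 or more on at least 2 of the 3 arrays, 7217 for NKB against B and 7877 for NKB against NK, with 0 exceptions in either. A transcript that passes 100 on the NKB array alone is therefore not in them. Of 38 member transcripts 2-fold above both other arrays, 8 read 100 or more on B or NK, and those 8 are listed. The share of all transcripts that were 2-fold higher without a level, and the share of those left unlisted, were not computed. Nothing is therefore read about the members from the counts of 41 and 38. By gene, 6 of the 17 called here (Acsm1, Ass1, Gpx3, Hrsp12, Slc22a6 and Slc34a1) are listed in both comparisons and 11 are not, among them Miox, Slc27a2, Tmem27, Slc22a8, Umod and Aqp2. The authors' deposited tables give Ass1 as 15.5-fold and 34.7-fold higher than B on its 2 transcripts, and 69.8-fold and 91.2-fold higher than NK, as plain ratios of 2 arrays.

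**Figure D4:**
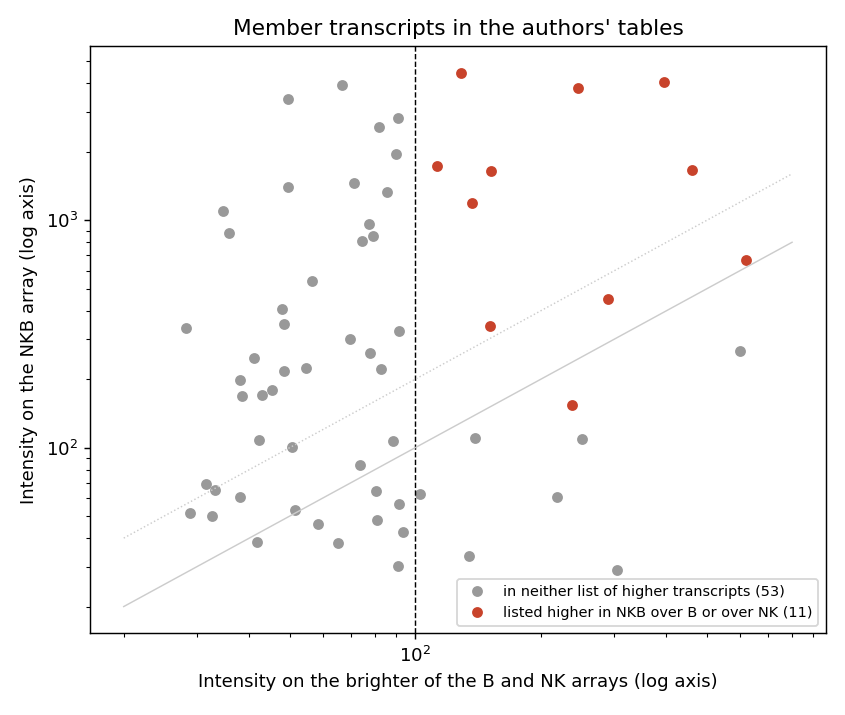
Intensity of each of the 64 member transcripts on the NKB array against the brighter of the B and NK arrays (log axes), with a solid line at equality, a dotted line at 2-fold and a dashed line at 100. The 11 transcripts that the authors' deposited tables list as higher in NKB over B or over NK lie right of the dashed line, and transcripts of up to 3950.5 on NKB lie left of it, unlisted.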

How the data were processed

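Total RNA of each sorted population was converted to cDNA with oligo dT primers, labelled with Cy3 and hybridised to a NimbleGen array, per the labels' protocols. The deposited values are linear intensities, 1 for each transcript on an array. Per the submitters' processing notes the authors used RMA, with its version not stated. By the files' own columns, 44155 of 44170 transcripts have 3 probes and coordinates are on MM9. The series value table holds the same intensities (largest difference 0). The authors also deposited log2 ratios of NKB over B and over NK, without a test.

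Symbols were updated by gene identifier with a GRCm38.p6 table, which held 39057 transcripts and changed 5650 symbols; 2284 transcripts without a symbol were left out. Members were matched by the array's gene name. Transcripts of a symbol were averaged on the log2 scale (Python 3.11.15, pandas 2.3.3, NumPy 2.4.6), with no further normalization. Detection levels and the 2-fold threshold are given with the results. The calling code was run on copies of the B array with 8-fold shifts set in detected genes. Those copies hold no noise between arrays, so the run checks the code and not the reliability of a 2-fold call. With 1 array per group no test was possible. Members, segment groups, marker lists and alternatives were chosen with earlier results of these data known. At most 3 genes are named from each list outside the members, with 2 more for macrophages. Values of 2 further proximal tubule genes are not reported here.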

Additional observations from a re-analysis of the deposited data

How the results depend on the processing

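The limits are 1 array per population and a detection level that sets the size of most folds, since 14 of the 17 genes called higher on NKB than on both other arrays were under it on B and on NK. A new quantile normalization and a shift of the arrays to equal medians kept all 17 (beside 3.29% and 3.91% of all genes), and each added 1 gene called lower in NKB than in NK, where 0 had been called. The brightest transcript kept the 17, added Napsa and Pck1 (beside 6.56% of all genes, against 3.83% as reported), gave medians of 1.05 in both comparisons, and gave 4 genes different between NK and B in place of 2. Requiring every transcript to pass kept 16 (beside 2.77%), without Gpx3, and 7 of the further proximal genes in place of 13.

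With the level at the 99th percentile (416 on B, 401 on NK and 235 on NKB), 11 genes were higher than on B, 11 than on NK and 11 than on both, of which all 11 were among the 17. The genes lost were Aqp1, Aqp2, Gpx3, Slc22a6, Slc5a2 and Umod. The later segments then had 0 genes called, the further proximal list 0, lower than B 0 and different between NK and B 0. Detected were 1 on B, 0 on NK and 20 on NKB, counts that rest on a lower level for NKB than for B and NK. The share of all genes detected at these levels was not computed. Both median log2 differences were 0, and 1.68% of all genes were above both. The bounds fell as well, for Tmem27 from log2 2.88 over B and 2.99 over NK to 1.39 and 1.45, and for Miox from 3.24 and 3.36 to 1.76 and 1.81.

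With no level, 28 were higher than on B, 28 than on NK, 27 than on both and 24 of these proximal, with 25 of the further proximal genes, 1 lower than NK and 7 different between NK and B. The median log2 differences were 2.07 and 2.26, and 8.74% of all genes were above both. Without a level, 20.9% of the 924 receptor genes also stood 2-fold apart for NKB against B. The receptor share was 21.0% for NKB against NK, and 14.0% when NK was set against B. Shares of all genes in each single comparison are not given for this setting, so nothing is read from the counts of 28, 28 and 7. At a 4-fold threshold 12 of the 17 were above both, without Aqp1, Aqp2, Slc22a6, Slc5a2 and Umod, beside 0.84% of all genes. The later segments then had 0, the further proximal list 3, lower than B 0 and different between NK and B 0. No paired analysis was possible because each group has 1 array.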
